A study of Mus musculus with 8 samples.

Results

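Intronic miRNAs are small RNAs cut from the introns of other genes, so that 1 primary transcript can carry both a messenger RNA and a miRNA. Measured here were 9 such miRNAs with named protein-coding host genes, of the 566 mouse miRNA probes on the panel. They were chosen by name with their hosts: mmu-miR-335-5p in Mest, mmu-miR-342-3p in Evl, mmu-miR-338-3p in Aatk, mmu-miR-151-5p in Ptk2, mmu-miR-340-5p in Rnf130, mmu-miR-26b in Ctdsp1, mmu-miR-28 in Lpp, mmu-miR-191 in Dalrd3 and mmu-miR-140 in Wwp2. The samples came from the retina of mice labelled Rlbp-Cre:tdTomato (Rlbp-CreER crossed to Stop f/f-tdTomato in the methods), in which the Rlbp1 promoter drives a tamoxifen-dependent Cre and the Cre switches on the red reporter tdTomato in Müller glia (MG), the main glial cell of the retina. Pigmented and ciliary epithelium, which also use this promoter, were dissected away before the tissue was dissociated. There were 6 pools of RNA. Adult MG (tdTomato+) and adult neurons (the tdTomato- remainder, in the mouse mostly rods) were sorted from 40 retinas of mice given 75 mg/kg tamoxifen on 2 consecutive days. P11 MG and P11 neurons were sorted at postnatal day 11 or 12 from 32 retinas of mice given the same dose on days 9 and 10. MG were also grown from young retinas of the same age (20 retinas in 1 label, 20 mice in another). In the methods 20 mice is the total over all cultures made, and fewer mice are given for the pooled culture RNA. The medium held 10% serum and 100 ng/mL EGF, and cells were passaged at 6 days in vitro (DIV). These cells were taken at 8 DIV and 14 DIV, with the RNA of 2 independent primary cultures joined. Every condition is thus 1 pooled sample, so no difference below carries a test, and each interval covers counting error only. In the labels the titles and the age entries of the 8 DIV and 14 DIV samples contradict each other. The titles, which match the column names of the count table, were followed.

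A miRNA hairpin is cut from its primary transcript in the nucleus, trimmed to a short duplex in the cytoplasm, and 1 strand of the duplex, the 5p or the 3p arm, is usually kept in the silencing complex while the other is degraded. The bases next to its 5′ end, called the seed, choose the messenger RNAs it represses. Intronic miRNAs can follow their host's promoter or use one of their own, and the mature miRNA can outlast the host's messenger by days, so host and miRNA levels need not move together. None of the 9 host messengers is on this panel, and no host level is given here.

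All 9 hairpins lay within the bounds of their host in the RefSeq annotation of GRCm38.p6, and for the 8 with a strand on both sides that strand was the same. Whether a hairpin lies in an intron or an exon was not checked, since exon positions were not used here. The mature sequences below, from RefSeq, are what the probes of 7 members read. They are shown because the ligation step of the assay reads the mature strand itself. The seed, in capitals (bases 2 to 8), also sets each of these 7 apart from the rest of them. No mature sequence was matched for miR-151-5p and miR-140, so neither was compared with the other members. The probes named without an arm were taken to read the 5p arm.
mmu-miR-335-5p (Mest, chr6:30741314-30741336, + strand): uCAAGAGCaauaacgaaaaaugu
mmu-miR-342-3p (Evl, chr12:108658680-108658702, + strand): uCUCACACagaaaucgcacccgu
mmu-miR-338-3p (Aatk, chr11:120014781-120014802, - strand): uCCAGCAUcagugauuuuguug
mmu-miR-340-5p (Rnf130, chr11:50069720-50069741, + strand): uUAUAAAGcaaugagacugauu
mmu-miR-26b (Ctdsp1, chr1:74394324-74394344, + strand): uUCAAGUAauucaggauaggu
mmu-miR-28 (Lpp, chr16:24827868-24827889, + strand): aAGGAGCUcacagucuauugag
mmu-miR-191 (Dalrd3, chr9:108568325-108568347, + strand): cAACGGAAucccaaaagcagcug
The 7 seeds differ from one another. Among the other mouse miRNAs in RefSeq, the seed of miR-26b returned in miR-26a and that of miR-28 in miR-708, both of which have a probe on the panel. The panel also holds miR-425, a neighbour of miR-191 in the same host.
mmu-miR-26a (shown at the first of its genes, chr9:119031811-119031832, + strand): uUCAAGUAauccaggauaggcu
mmu-miR-708 (chr7:96249450-96249472, + strand): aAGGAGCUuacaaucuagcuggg
mmu-miR-425 (Dalrd3, chr9:108568789-108568811, + strand): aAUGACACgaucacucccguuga
Set base by base from the 5′ end, miR-26a differs from miR-26b at U11C and U21C, outside the seed, and has 1 base more. How far the 2 probes read each other's miRNA was not tested, and the same holds for every other pair of probes. Both mature strands of miR-335 and of miR-340 had probes that counted above background in some samples. Their hairpins follow, with the 5p and the 3p strand in capitals.
Mir335 (chr6:30741299-30741396, + strand): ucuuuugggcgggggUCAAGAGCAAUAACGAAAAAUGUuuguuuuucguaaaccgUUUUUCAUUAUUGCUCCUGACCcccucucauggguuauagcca
Mir340 (chr11:50069702-50069799, + strand): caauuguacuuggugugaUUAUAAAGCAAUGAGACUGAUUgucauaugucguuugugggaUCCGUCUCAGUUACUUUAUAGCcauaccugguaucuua

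Levels were measured with the NanoString nCounter assay, in which each mature miRNA is ligated to a tag and counted by a barcoded probe without amplification. A normalized count is what remains of the raw count once the average negative control probe is taken off, scaled so that the summed housekeeping mRNAs (Actb, B2m, Gapdh and Rpl19) match those of adult MG. A probe was called above background where its raw count exceeded the negative control mean plus 2 SD, a level of 52.8 to 106.0 raw counts. Totals of miRNA counts ran from 275042 to 696712 per sample, and 129 to 186 mouse probes were above background. Together the 9 members made up 1.32% of the counts in adult MG, 2.12% in adult neurons, 1.60% in P11 MG, 1.75% in P11 neurons, 1.27% at 8 DIV and 1.01% at 14 DIV. Summed markers of the sorted cells differed between the fractions. The 4 neuronal miRNAs on the marker list (miR-124, miR-129-3p, miR-132, miR-138) summed to 0.247% of the counts in adult MG, against 30.5% in adult neurons, and to 0.361% in P11 MG, against 14.0% in P11 neurons. Most of the neuronal sums was miR-124, with 29.5% in adult and 13.7% in P11 neurons. miR-129-3p had 330 raw counts in P11 MG and 388 in P11 neurons. miR-138 was not above background in any fresh fraction, with 58 raw counts in adult MG and 57 in adult neurons. The 3 photoreceptor miRNAs (miR-183, miR-96, miR-182) summed to 0.0973% in adult MG, against 18.6% in adult neurons. At P11 these sums were 0.261% in MG and 10.7% in neurons. The 5 Müller glia miRNAs, which the study chose on these samples, made up 61.7% of the counts in adult MG and 3.08% in adult neurons. At P11 they made up 47.8% in MG and 9.87% in neurons, a narrower gap than in the adult fractions. In culture, the 4 mesenchymal miRNAs (miR-143, miR-145, miR-199a-3p, miR-214) stood at 0.0401% in P11 MG, 0.632% at 8 DIV and 3.97% at 14 DIV, with 0, 3 and 4 of them above background. The 4 neuronal miRNAs stood at 0.361% in P11 MG, 0.658% at 8 DIV and 0.368% at 14 DIV, with 3, 4 and 4 above background. In the same order miR-124 had 0.251%, 0.242% and 0.184%, and miR-138 had 0.0167%, 0.0187% and 0.0158%. miR-129-3p had 0.0679%, 0.196% and 0.110%, and miR-132 had 0.0251%, 0.201% and 0.0584%. The 3 photoreceptor miRNAs summed to 0.261%, 0.117% and 0.0801%. Red blood cell miR-451 had 26 raw counts (0.00373%) in adult MG, against 1599 (0.457%) in adult neurons, and 34 in P11 MG, against 371 (0.135%) in P11 neurons, so it was above background in the neuron fractions alone. Myeloid miR-223 was above background at 14 DIV alone, with 158 raw counts. Endothelial miR-126-3p was above background in every sample. It had 208 raw counts (0.0299%) in adult MG, against 109 (0.0311%) in adult neurons. At P11 it had 360 (0.0741%) in MG, against 238 (0.0865%) in neurons. In culture it had 83 (0.0187%) at 8 DIV and 66 (0.0168%) at 14 DIV. The part of these other cell types in the member values was not tested, and fewer cells of a type cannot be told apart from less of a miRNA per cell. Scaling weighs on every fold change. Raw Actb was 7024 in adult MG, against 1025 in adult neurons, while Gapdh was 730 in adult MG, against 1070 in adult neurons. B2m was below background in both neuron fractions and moved most in culture, with 629 raw counts in P11 MG, 7308 at 8 DIV and 2934 at 14 DIV, or 4.92%, 44.8% and 16.5% of the housekeeping sum. With the 6 other scalings tried, all log2 ratios of adult MG over adult neurons moved together by -1.02 (Actb alone) to 2.38 (Gapdh alone). For P11 MG over P11 neurons the shift was -0.37 to 1.36, for adult over P11 MG -0.96 to 0.25, and for adult over P11 neurons -1.88 to 0.61. In culture it was -0.60 to 1.06 for 8 DIV over P11 MG, -0.92 to 0.63 for 14 over 8 DIV and -0.23 to 1.86 for 14 DIV over adult MG. With B2m alone, added after seeing the data and not counted among the 7 scalings, the shift was 0.34 for adult over P11 MG, -3.19 for 8 DIV over P11 MG, 1.44 for 14 over 8 DIV and -2.08 for 14 DIV over adult MG.

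Of the 9 members 8 were above background in all 6 samples. The exception was miR-28, which had 62 raw counts in adult neurons, where background reached 69.9. The best placed member was miR-335-5p in both MG fractions, at rank 22 of the mouse probes with 2921 raw counts in adult MG and 2355 in those of P11, and miR-342-3p in both neuron fractions, at rank 22 in adult neurons with 2408 raw counts and rank 28 in P11 neurons with 1593. Probes bind with different efficiency, so levels of 1 miRNA are compared between samples here, and ranks of different miRNAs are a description of counts.

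**Figure D1:**
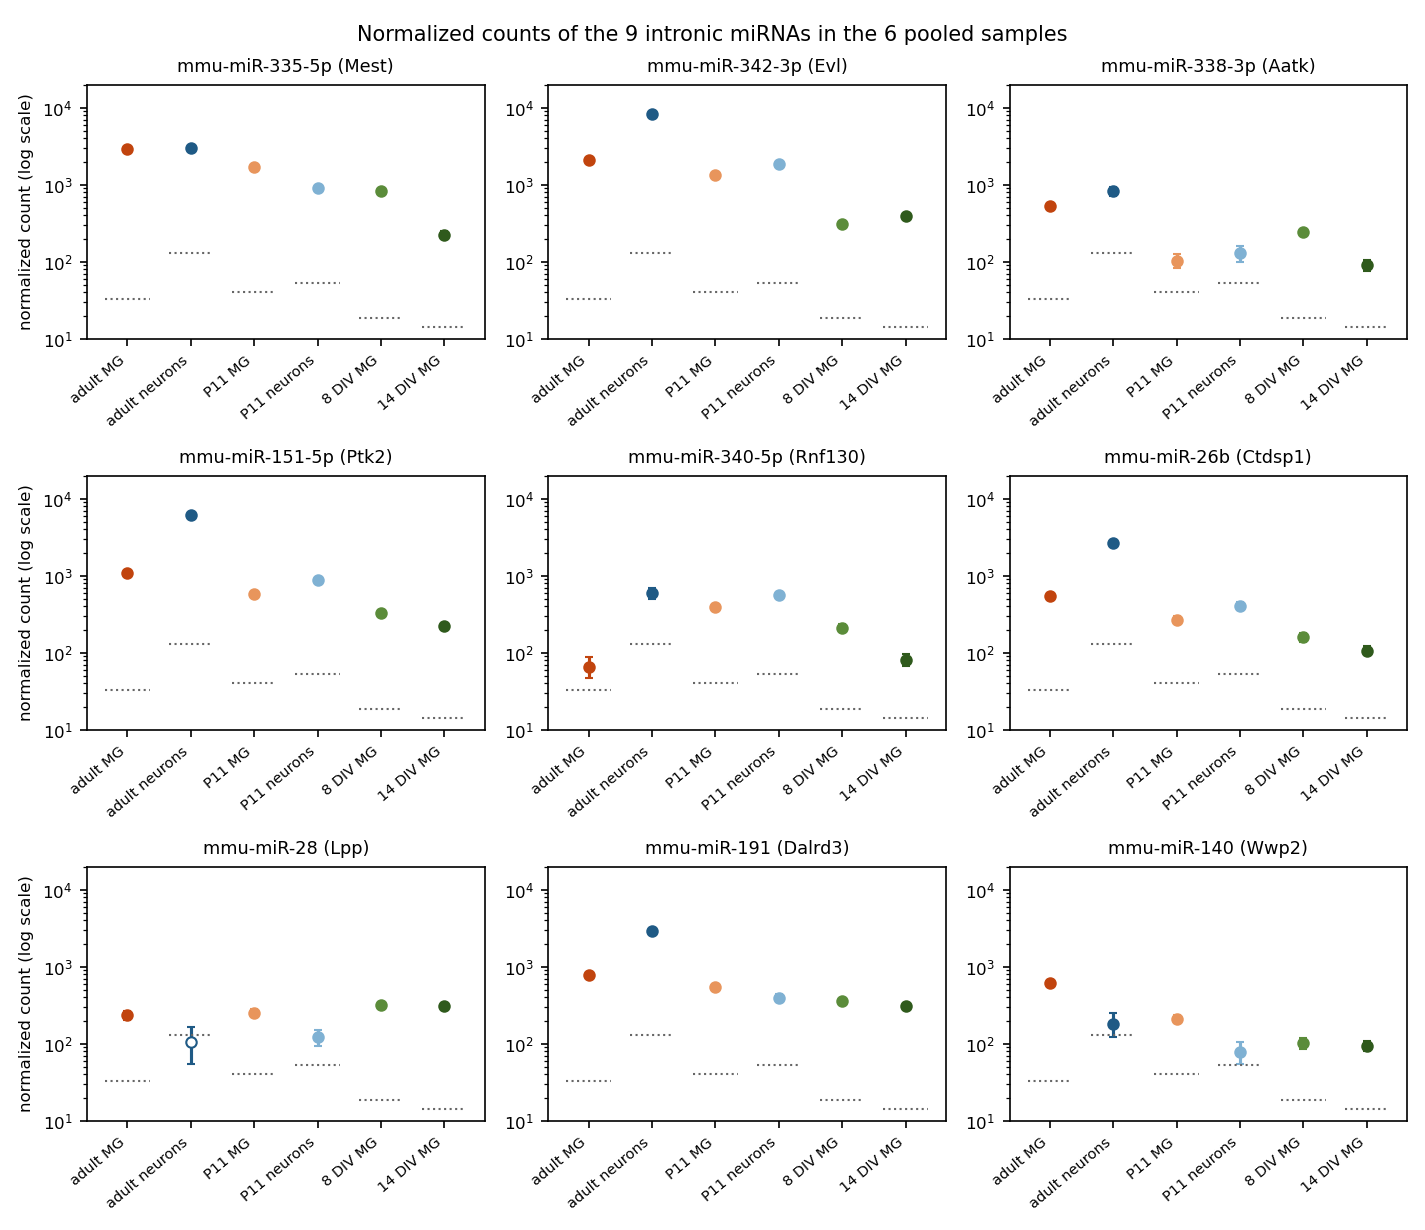
Normalized counts (vertical, log scale) of the 9 intronic miRNAs in the 6 pooled samples, with exact Poisson 95% bounds as bars, the background level of each sample as a dotted line, and an open circle for a value not above background. Adult neurons hold the highest value of 7 of the 9 members, all but miR-28 and miR-140. Their scale factor, 3.46, is the largest of the 6 samples, and 74.4% of measured probes were at least 2-fold above P11 neurons there. As a share of all miRNA counts, miR-335-5p is highest in P11 MG (0.485%), miR-338-3p at 8 DIV (0.110%) and miR-340-5p in P11 neurons (0.187%). Adult MG hold the lowest value of miR-340-5p, at 65.4.

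Of the hosts, 3 act at the cell cortex and its adhesions. Evl is an actin regulator of the Ena/VASP family, Ptk2 is focal adhesion kinase, and Lpp is a LIM protein of focal adhesions. Their miRNAs did not all share a pattern. The level of miR-342-3p was 2117 normalized counts in adult MG, 8232 in adult neurons, 1340 in P11 MG, 1862 in P11 neurons, 305.1 at 8 DIV and 388.9 at 14 DIV. Both cultures lay below all 4 freshly sorted samples. The level of miR-151-5p was 1092 in adult MG, 6112 in adult neurons, 583.7 in P11 MG, 867.5 in P11 neurons, 326.4 at 8 DIV and 223.9 at 14 DIV. It too was highest in adult neurons and lower in both cultures than in any fresh sample. By contrast, miR-28 stood at 234.4 in adult MG, at 104.4 in adult neurons (not above background), at 250.1 in P11 MG, 120.7 in P11 neurons, 319.5 at 8 DIV and 309.6 at 14 DIV. The 4 MG samples all lay above both neuron samples, and the cultures were the highest of the 6.

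Both Rnf130 and Wwp2 encode E3 ubiquitin ligases. The miRNA of Rnf130, miR-340-5p, was counted at 65.4 in adult MG, 596.3 in adult neurons, 390.0 in P11 MG, 566.1 in P11 neurons, 210.1 at 8 DIV and 80.9 at 14 DIV. Its raw count in adult MG was 104 against a background of 71.7, whereas that in P11 MG was 580 against 106.0. Adult MG and 14 DIV MG were the 2 low samples, and the intervals of those 2 overlapped. The miRNA of Wwp2, miR-140, is best known from cartilage, where it is abundant. It was counted at 612.4 in adult MG, 180.6 in adult neurons, 209.6 in P11 MG, 77.5 in P11 neurons, 100.8 at 8 DIV and 94.1 at 14 DIV. Adult MG stood alone at the top, and the 2 neuron values came from 84 raw counts in adult neurons and 107 in P11 neurons, just above the background of 69.9 and 87.0.

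Aatk is a kinase abundant in the brain and Ctdsp1 a small phosphatase that acts with the REST repressor to keep neuronal genes off outside neurons. The miRNA of Aatk, miR-338-3p, is known for promoting the maturation of oligodendrocytes. Its level was 526.4 in adult MG, 821.5 in adult neurons, 102.8 in P11 MG, 127.9 in P11 neurons, 242.1 at 8 DIV and 90.2 at 14 DIV. Both adult fractions lay above both P11 fractions, and 8 DIV lay between them. The probe of miR-219, an oligodendrocyte marker, was at background in all 6 samples. The miRNA of Ctdsp1, miR-26b, had 540.4 normalized counts in adult MG, 2689 in adult neurons, 268.5 in P11 MG, 401.6 in P11 neurons, 157.9 at 8 DIV and 106.8 at 14 DIV. Its order across the samples was that of miR-151-5p.

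Mest is an imprinted gene expressed in embryonic mesoderm, and Dalrd3 is needed in human cells for the methylation of certain tRNAs. The miRNA of Mest, miR-335-5p, is known for restraining the migration of human breast cancer cells. It was counted at 2882 in adult MG, 2976 in adult neurons, 1697 in P11 MG, 896.3 in P11 neurons, 819.8 at 8 DIV and 224.9 at 14 DIV. The value at 14 DIV was the lowest by a wide margin, and the intervals of the 2 adult fractions overlapped. The miRNA of Dalrd3, miR-191, is widely expressed and often used to normalize miRNA measurements. It was counted at 778.4 in adult MG, 2942 in adult neurons, 550.5 in P11 MG, 390.8 in P11 neurons, 354.2 at 8 DIV and 309.6 at 14 DIV. Adult neurons stood apart from the other 5 samples, which together ran from 309.6 to 778.4.

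To see where the members differ between glia and neurons, the adult fractions were compared first. A member was counted as higher or lower at a fold of 2 or more among probes above background in either sample. In adult MG, 2 of 9 members were at least 2-fold higher than in adult neurons (18.6% of all 199 measured mouse probes were), namely miR-140 and miR-28, and 5 were at least 2-fold lower (56.3% of probes), namely miR-340-5p, miR-151-5p, miR-26b, miR-342-3p and miR-191. Members had a median log2 ratio of -1.92, against -1.36 for all measured probes. miR-140 was 3.39-fold higher in adult MG (2.25 to 5.46). miR-28 was at least 1.78-fold higher when adult neurons are set at their background level, and 2.25-fold higher at the measured value. On the other side, miR-340-5p was 9.12-fold lower in adult MG (5.75 to 15.1) and miR-151-5p 5.59-fold lower (5.02 to 6.24). miR-335-5p did not differ beyond counting error, at 0.968-fold (0.872 to 1.08). As scaling moves every ratio in a comparison by the same amount, the place of a member among the probes does not depend on it. By that measure miR-140 lay above 84.9% and miR-340-5p above only 17.1% of measured probes.

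At P11 the same 2 members were at least 2-fold higher in MG than in neurons (28.1% of the 171 measured probes were), and 0 of 9 were at least 2-fold lower (25.7% of probes). miR-140 was 2.71-fold higher in P11 MG (1.76 to 4.38) and miR-28 2.07-fold higher (1.47 to 2.99). The other 7 members lay between 1.5-fold lower, for miR-26b, and 1.89-fold higher, for miR-335-5p. The median over members was a log2 ratio of -0.31, against -0.04 for all measured probes. Across the 7 scalings tried, miR-140 kept its direction at both ages and miR-28 at P11. The lowest fold of miR-140 was 1.67 in adult fractions and 2.09 at P11, and that of miR-28 was 1.6 at P11. In adult fractions, with neurons at their background level, miR-28 was at 0.877-fold with Actb alone and at 1.78-fold or more with the others. At P11 miR-335-5p and miR-191 also kept theirs, and in adult fractions miR-340-5p and miR-151-5p did, the last down to 0.930-fold with Gapdh alone. The other 5 members at each age changed direction under at least 1 scaling.

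**Figure D2:**
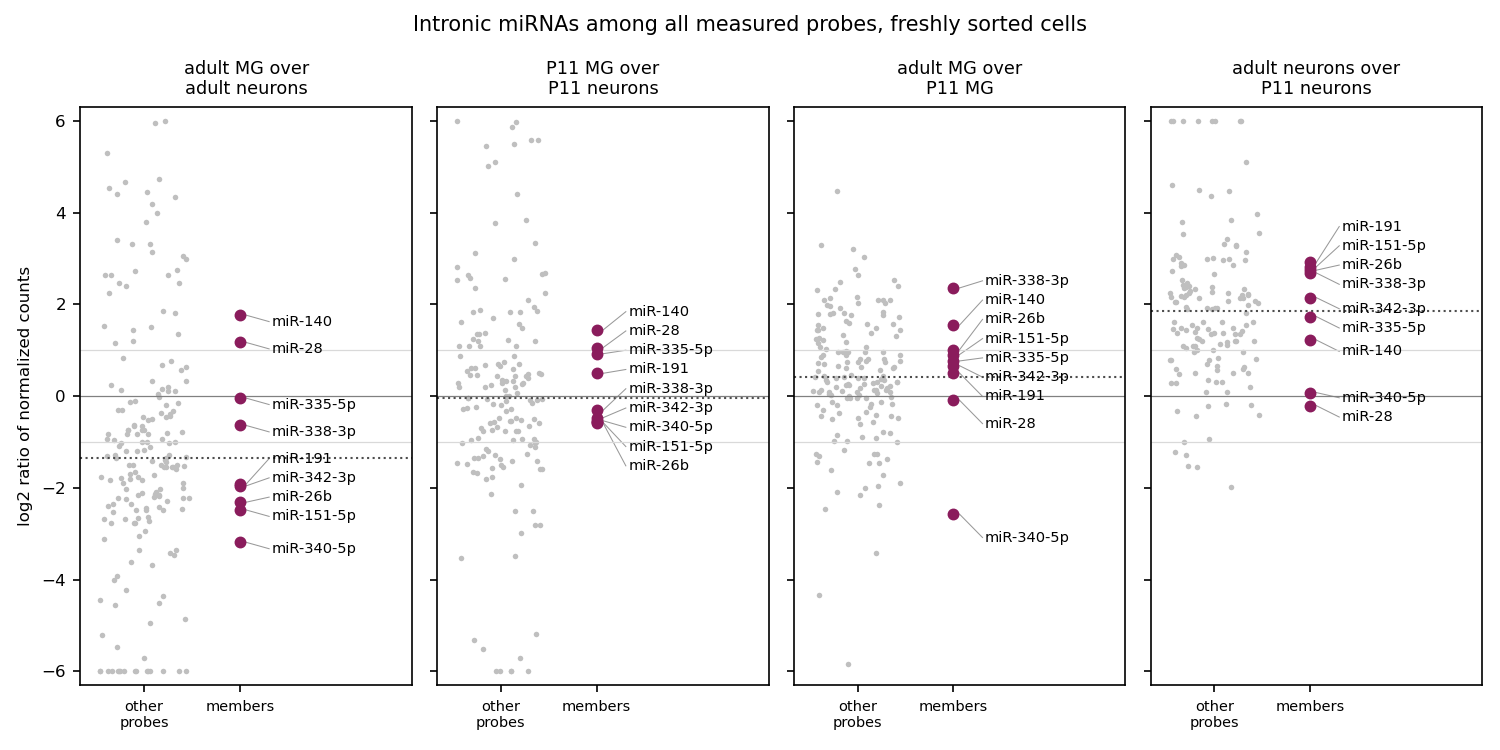
Log2 ratios of normalized counts (vertical) in the 4 comparisons of freshly sorted cells, with members as large named points and the other measured mouse probes as grey points, those past 6 or -6 drawn at the edge. The dotted line is the median of the measured probes and the pale lines mark a fold of 2. In adult MG over adult neurons miR-140 and miR-28 lie above the upper line and 5 members below the lower one.

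Maturation was then followed within each cell fraction. In adult MG, 3 of 9 members were at least 2-fold higher than in P11 MG (30.2% of the 179 measured probes were) and 1 was at least 2-fold lower (12.8% of probes). The higher ones were miR-338-3p, miR-140 and, at 2.01-fold on the edge of the count, miR-26b. miR-338-3p had the greatest of these ratios, 5.12-fold (3.87 to 6.88), above 94.4% of the measured probes. miR-140 was 2.92-fold higher in adult MG (2.37 to 3.61). The lower one was miR-340-5p, 5.97-fold lower in adult MG (4.07 to 9.20), and only 1.68% of the measured probes had a lower ratio. All 4 of these directions held in the 7 scalings, with miR-340-5p between 0.0861-fold and 0.200-fold. For miR-26b the direction held only barely, at 1.03-fold with equal totals. miR-28 did not differ beyond counting error, at 0.937-fold (0.725 to 1.21).

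In adult neurons, 7 of 9 members were at least 2-fold higher than in P11 neurons, which 74.4% of the 156 measured probes also were, and 0 of 9 were at least 2-fold lower (3.21% of probes). The median log2 ratio was 2.14 for members and 1.85 for all measured probes, so the count follows the whole panel under this scaling. Relative to the panel, miR-191, at 7.53-fold (6.26 to 9.08), lay highest of the members, above 79.5% of probes. miR-340-5p and miR-28 were the 2 members that were not higher by 2-fold, at 1.05-fold (0.808 to 1.36) and 0.865-fold, the second with adult neurons at background. They lay above only 8.97% and 7.05% of probes. In terms of raw counts miR-340-5p had 204 in adult neurons against 514 in P11 neurons.

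The 2 maturation ratios were set side by side for the 99 probes above background in all 4 fresh samples, where the median difference, MG minus neurons, was -1.14 on the log2 scale. They do not share control samples. miR-340-5p differed by -2.65, with 11.1% of probes lower, and miR-191 by -2.41, with 13.1% lower. At the other end miR-140 differed by 0.33, above 88.9% of probes, and miR-338-3p by -0.33, above 80.8%. miR-338-3p was thus high in both adult fractions, with log2 ratios of 2.36 in MG and 2.68 in neurons, while miR-191 had 0.50 in MG and 2.91 in neurons. These differences were not tested.

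**Figure D3:**
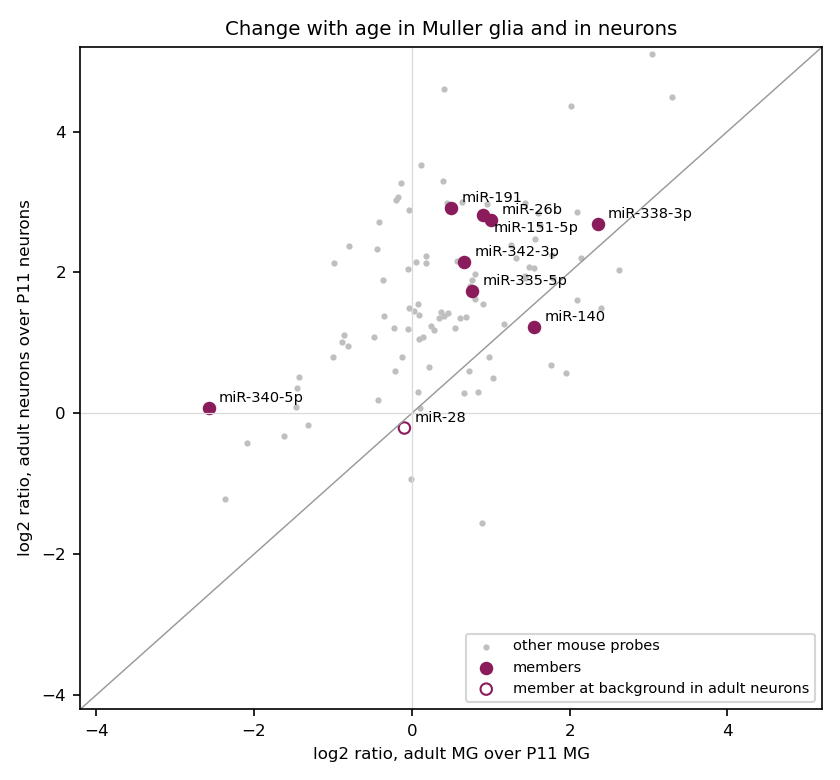
Log2 ratio of adult over P11 in neurons (vertical) against the same ratio in MG (horizontal), for members (named) and the other mouse probes above background in all 4 fresh samples (grey), with the line of equal ratios. miR-340-5p lies far to the left, at -2.58 in MG and 0.07 in neurons, and miR-338-3p at the right, at 2.36 and 2.68.

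The cultures, grown from dissociated retinas with no sort stated, were compared with the sorted P11 MG, which were a separate pool. At 8 DIV, 1 of 9 members was at least 2-fold higher than in P11 MG (19.9% of the 196 measured probes were) and 3 were at least 2-fold lower (20.9% of probes). The higher one was miR-338-3p, 2.36-fold (1.77 to 3.18), above 83.2% of probes. Its raw count was 490 at 8 DIV against 190 in P11 MG. miR-342-3p was 4.39-fold lower (3.85 to 5.02), with a raw count of 608 at 8 DIV against 1870 in P11 MG. miR-140 and miR-335-5p were 2.08-fold and 2.07-fold lower. Of the 9 members, only miR-338-3p and miR-342-3p kept their direction in the 7 scalings, and with B2m alone miR-338-3p turned, to a log2 ratio of -1.95.

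At 14 DIV, 0 of 9 members were at least 2-fold higher than at 8 DIV (9.62% of the 208 measured probes were) and 3 were at least 2-fold lower (26.9% of probes). These were miR-335-5p, 3.65-fold lower (3.15 to 4.22), miR-338-3p, 2.69-fold lower (2.09 to 3.47), and miR-340-5p, 2.6-fold lower (1.99 to 3.42), all of which kept their direction in the 7 scalings. With B2m alone miR-338-3p and miR-340-5p turned, to log2 ratios of 0.02 and 0.07, and miR-335-5p did not. Only 12.0% of the measured probes had a ratio below that of miR-335-5p. For 3 other members, miR-28, miR-191 and miR-140, the interval of the ratio included equal levels, at 0.969-fold, 0.874-fold and 0.933-fold. The share of miR-335-5p in all miRNA counts was 0.485% in P11 MG, 0.355% at 8 DIV and 0.123% at 14 DIV, and that of miR-28 was 0.0802%, 0.143% and 0.167%. As a share of counts, miR-335-5p was lower and miR-28 higher at each later time.

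Against adult MG, 0 of 9 members were at least 2-fold higher at 14 DIV (17.5% of the 211 measured probes were) and 7 were at least 2-fold lower (50.2% of probes). The median log2 ratio was -2.34 over members and -1.01 over all measured probes. miR-335-5p was 12.8-fold lower at 14 DIV (11.2 to 14.6), with 5.69% of probes below it, and miR-140 was 6.51-fold lower (5.16 to 8.26). The 2 members not lower were miR-340-5p at 1.24-fold (0.780 to 2.05) and miR-28 at 1.32-fold (1.06 to 1.65). Direction held in the 7 scalings for all members but miR-191, which was 2.51-fold lower here and 1.44-fold higher with equal totals. With B2m alone miR-340-5p and miR-28 also turned. The comparisons of the cultures share samples, as do those of the fresh fractions, so their counts of members are not independent.

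**Figure D4:**
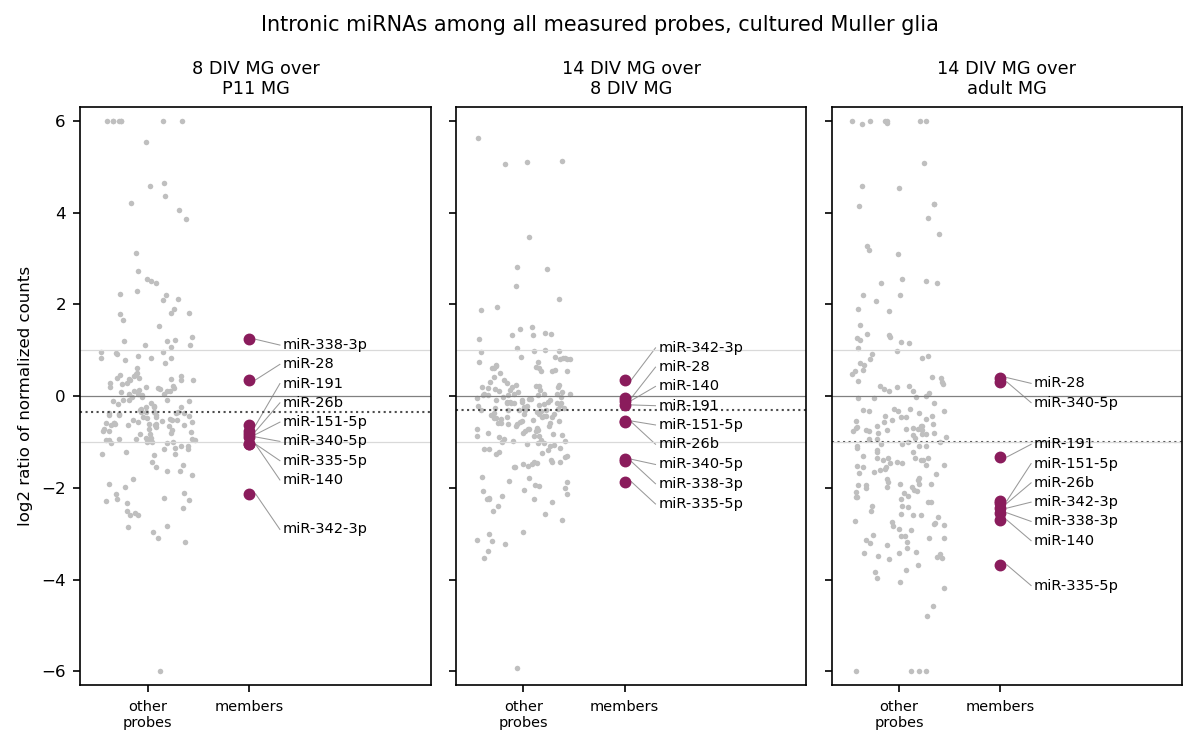
Log2 ratios of normalized counts (vertical) for the cultured MG, drawn as for the freshly sorted cells. miR-338-3p lies above the line of a fold of 2 at 8 DIV over P11 MG and below the lower line at 14 DIV over 8 DIV, and 7 members lie below that line at 14 DIV over adult MG.

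Ratios between 2 probes within a sample need no scaling, and they were used to ask which members vary together. Likeness was measured as the SD, over the 6 samples, of the log2 ratio of 2 probes. Among the 96 mouse probes above background in every sample there were 4560 pairs, with a median SD of 1.38. The 28 pairs among the 8 such members had a median of 1.07 and ran from 0.06 to 2.1. The pair with the lowest SD of all 4560 was miR-26b with miR-151-5p, at 0.06. The next pair, of other probes, was at 0.17. Background-subtracted counts of miR-26b over miR-151-5p gave 0.495 in adult MG, 0.440 in adult neurons, 0.460 in P11 MG, 0.463 in P11 neurons, 0.484 at 8 DIV and 0.477 at 14 DIV. The pair was picked out for this steadiness, so its ratios are a description. Over the same samples miR-151-5p itself ran from 223.9 to 6112 normalized counts. Their genes lie on different chromosomes, 1 and 15. The widest pair was miR-340-5p with miR-140, at 2.1.

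The probe most like miR-191 was miR-425, from the same host and the same strand of Dalrd3, with an SD of 0.28, at place 18 of the 4560 pairs. miR-425 had 163.4 normalized counts in adult MG, 942.8 in adult neurons, 179.4 in P11 MG, 97.9 in P11 neurons, 124.8 at 8 DIV and 90.7 at 14 DIV. Like miR-191, it was highest in adult neurons. The ratio of miR-191 to miR-425 lay between 2.84, at 8 DIV, and 4.76, in adult MG, and the intervals of these 2 samples did not overlap. After miR-425 came miR-1839-5p, at 0.35.

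For miR-340-5p the closest probes were the joint probe of miR-106a and miR-17, at 0.41, and miR-19a, at 0.45, which belong to clusters known for driving proliferation. The 3 probes of the proliferation list (miR-106a+miR-17, miR-20a+miR-20b, miR-19b) summed to 0.102% of counts in adult MG, 0.254% in adult neurons, 0.771% in P11 MG, 1.45% in P11 neurons, 0.6% at 8 DIV and 0.167% at 14 DIV. By this share adult MG and 14 DIV had the lowest sums, with adult neurons next. As a share of counts, miR-340-5p itself stood at 0.0149% in adult MG, 0.0482% at 14 DIV and 0.0583% in adult neurons. Closest to miR-335-5p were miR-148a (0.46) and miR-532-5p (0.51). Closest to miR-140 were miR-99a (0.44), 1 of the glial markers, and miR-130a (0.47). miR-338-3p was most like miR-30a (0.56) and miR-1896 (0.59), and miR-342-3p was most like the members miR-151-5p (0.49) and miR-26b (0.50). After each other, miR-26b and miR-151-5p had miR-1906 next, at 0.40 and 0.44. The nearest probes to miR-28 were let-7c at 0.64 and let-7b at 0.75. These SDs include its adult neuron value, 62 raw counts, which was not above background. These are descriptions over 6 samples, which differ in depth and cell source.

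Where the other arm of a hairpin had a probe, the member's own arm gave the higher count in every sample in which both were above background. The 5p to 3p ratio of the Mir335 hairpin shown above was 73.2 in adult MG and 18.1 in P11 MG, and 30.7 at 8 DIV, from raw counts of the 3p probe of 78, 178 and 86. In the other 3 samples miR-335-3p was at background. For the Mir340 hairpin the ratio was 1.58 in adult MG, 5.01 in P11 MG, 9.16 in P11 neurons and 10.6 at 8 DIV. Adult MG was the sample in which the arms of Mir340 came closest, with 104 raw counts for miR-340-5p and 80 for miR-340-3p, both near the background of 71.7. The high ratios also rest on low 3p counts. miR-340-3p had 94 raw counts in P11 neurons, against a background of 87.0, and 73 at 8 DIV, against 70.7. The 78 of miR-335-3p in adult MG was near background too. No interval is given for the arm ratios, and their differences between samples were not tested. miR-338-5p was above background in adult MG alone and miR-151-3p at 14 DIV alone, while miR-342-5p was above it in 0 of 6 samples.

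The seed of miR-26b is shared by miR-26a, which has hosts of the same gene family, Ctdspl and Ctdsp2. miR-26a had 168.4 normalized counts in adult MG, 232.6 in adult neurons, 110.2 in P11 MG, 90.7 in P11 neurons, 62.4 at 8 DIV and 63.7 at 14 DIV, all above background. The ratio of miR-26b to miR-26a was 3.21 in adult MG, 11.6 in adult neurons, 2.44 in P11 MG, 4.43 in P11 neurons, 2.53 at 8 DIV and 1.68 at 14 DIV. It was highest in adult neurons and its intervals did not all overlap. miR-708, which shares the seed of miR-28, was above background in 0 of 6 samples.

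**Figure D5:**
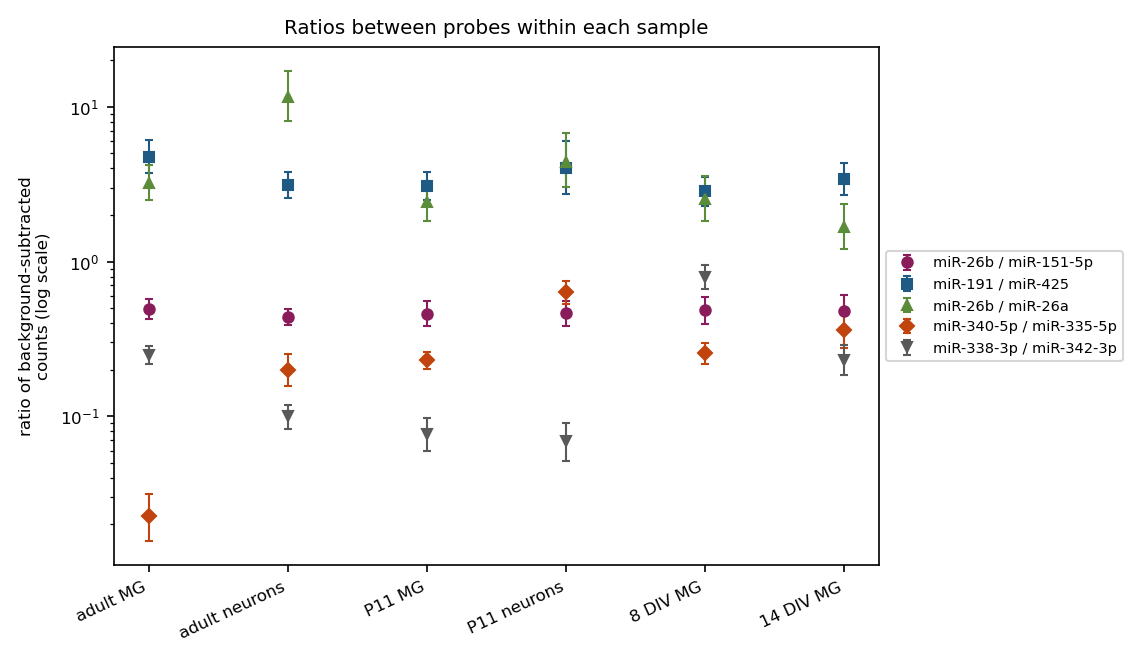
Ratios of background-subtracted counts (vertical, log scale) of 5 pairs of probes in the 6 pooled samples, with bars from the exact Poisson 95% bounds of both counts. miR-26b over miR-151-5p stays between 0.440 and 0.495, whereas miR-340-5p over miR-335-5p runs from 0.0227 in adult MG to 0.632 in P11 neurons.

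For a wider view, all mouse probes whose hairpins lay in a protein-coding gene on the same strand in RefSeq were listed. Of 566 mouse probes 442 were matched by name to a miRNA gene there, and 171 met the rule, 7 of them members and 164 other probes. In adult MG over adult neurons, 13 of the 62 measured others were at least 2-fold higher and 34 lower, or 21.0% and 54.8%, beside 18.6% and 56.3% of all measured probes. In P11 MG over P11 neurons 13 and 12 of 49 were higher and lower, or 26.5% and 24.5%, beside 28.1% and 25.7%. With age, 17 and 4 of 54 were higher and lower in adult MG, or 31.5% and 7.41%, beside 30.2% and 12.8%. In adult neurons 34 and 2 of 45 were, or 75.6% and 4.44%, beside 74.4% and 3.21%. For 8 DIV over P11 MG the counts were 11 and 9 of 58, or 19.0% and 15.5%, beside 19.9% and 20.9%. At 14 DIV over 8 DIV 0 and 19 of 61 were higher and lower, the second 31.1%, beside 9.62% and 26.9% of all measured probes. For 14 DIV over adult MG they were 7 and 35 of 61, or 11.5% and 57.4%, beside 17.5% and 50.2%. The median log2 ratio of this list lay furthest from that of all measured probes at 14 DIV over adult MG, where it was -1.36 for the list and -1.01 for the panel. With age in MG the lowest ratio among the 54 measured others was that of miR-106b, in the DNA helicase gene Mcm7. It had a log2 ratio of -2.0 and raw counts of 90 in adult MG against 330 in P11 MG. The next lowest was miR-335-3p of Mest, at -1.26. At the other end were miR-208a (4.46) and miR-1981 (3.19), neither of them above background in P11 MG. Extremes of the other comparisons are not given.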

How the data were processed

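Total RNA of each pool was counted on the nCounter mouse miRNA panel of 599 miRNA probes (33 of them viral), with 8 negative, 6 positive and 6 ligation controls, 4 housekeeping mRNAs and spike-ins. The authors deposited the raw counts in 6 columns, and a table of normalized scores in 8 columns, in which the adult MG and P11 MG pools stand in both of its 2 data sets. Each pool was counted once. Within each column the deposited scores are 1 constant times the background-subtracted count, except for values that did not match (beyond 2 counts and 1%). These were 8 of 72 member values, and each equals the value rebuilt for 1 other probe: miR-30a for miR-26b in both MG fractions of the first data set, and in both cultures miR-30d for miR-342-3p, miR-350 for miR-151-5p and miR-99b for miR-191. Values were therefore rebuilt from the raw counts: the mean of the negative controls was subtracted, net counts below 1 were set to 1, and the summed housekeeping mRNAs were made equal (factors 0.490 to 3.46, with adult MG at 1). The counting intervals of ratios divide exact Poisson 95% bounds crosswise and are wider than 95%. Python 3.11.15 with pandas 2.3.3 and scipy 1.17.1 was used, and the steps were tested on simulated data. Alternatives were scaling to equal total miRNA counts, to the 100 most counted miRNAs (their geometric mean), to positive controls, or to Actb, Gapdh or Rpl19 alone, a raised background, a minimum of 50 counts, a fold of 3 and the deposited scores. Scaling without B2m or, between MG samples, to B2m alone was added after seeing the data. Named probes were the members, other arms, same-host and same-seed probes, and the 2 most alike probes of each member. Extremes among other miRNAs within protein-coding genes were named for adult over P11 MG alone. Members and lists were chosen with earlier results of these data known.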

Additional observations from a re-analysis of the deposited data

Results flagged for a closer look

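The contrast of MG with neurons ran in opposite directions at the 2 ages for miR-191. Its log2 ratio was -1.92 in adult fractions and 0.49 at P11, each from 1 pooled sample per fraction, and the difference was not tested. Raw counts were 817 in adult MG, against 881 in adult neurons, and 798 in P11 MG, against 368 in P11 neurons. With Gapdh alone the adult log2 ratio was 0.46, on the same side as at P11. The median log2 ratio of all measured probes also moved, from -0.04 at P11 to -1.36 in adult fractions. By place, miR-191 lay above 64.3% of measured probes at P11 and above 37.2% in adult fractions. miR-425, from the same host, likewise had opposite signs, with log2 ratios of 0.87 at P11 and -2.53 in adult fractions.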

How the results depend on the processing

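Scaling decided most counts of members past a fold of 2. Of the 5 members lower in adult MG than in adult neurons, 2 were counted with the top 100 miRNAs or Rpl19 alone, 1 with positive controls and 0 with Gapdh alone. The 2 members higher there became 4 with positive controls or Gapdh alone, 0 with Actb alone, and 1 with a raised background (miR-28 no longer counted) or a fold of 3. The 2 higher in P11 MG than in P11 neurons became 1 with equal totals or Actb alone, 4 with positive controls or Rpl19 alone, 5 with Gapdh alone and 0 at a fold of 3. Of the 3 higher in adult than in P11 MG, 1 was counted with equal totals or at a fold of 3, against 5 with Rpl19 alone, and those lower went to 2 with equal totals. In adult neurons the 7 higher became 4 with the top 100 miRNAs and 1 with equal totals, and 2 were lower with equal totals, the top 100 miRNAs, positive controls or Gapdh alone. At 8 DIV the 3 lower than in P11 MG became 1 with equal totals, positive controls, Actb or Gapdh alone or a fold of 3, 5 with the top 100 miRNAs and 7 with Rpl19 alone. The 1 higher became 2 with positive controls, Actb or Gapdh alone, and 0 with Rpl19 alone or a fold of 3. The 3 lower at 14 than at 8 DIV became 7 with Actb alone and 1 with Rpl19 alone or a fold of 3. At 14 DIV against adult MG 1 was lower with equal totals, and 2 were higher with equal totals, the top 100 miRNAs, positive controls or Gapdh alone. The 2 scalings added after seeing the data moved further counts. Without B2m 2 were higher and 1 lower at 8 DIV than in P11 MG, and 5 lower at 14 than at 8 DIV. With B2m alone 6 were higher in adult than in P11 MG, 0 higher and 9 lower at 8 DIV than in P11 MG, and 4 higher and 0 lower at 14 than at 8 DIV. Of 34 single ratios past a fold of 2, 23 never changed sign and 11 did. In adult MG over adult neurons, Gapdh alone gave log2 ratios of 0.42 for miR-342-3p, 0.06 for miR-26b and 0.46 for miR-191. In adult over P11 neurons, miR-335-5p was at -0.14 with equal totals, and miR-140 at -0.39 with the top 100 miRNAs and -0.65 with equal totals. At 8 DIV over P11 MG, Actb alone gave 0.01 for both miR-335-5p and miR-140, and B2m alone -1.95 for miR-338-3p. At 14 over 8 DIV, B2m alone gave 0.02 for miR-338-3p and 0.07 for miR-340-5p. At 14 DIV over adult MG, miR-191 was at 0.53 with equal totals and at 0.82 in the deposited scores, where its culture values are those of miR-99b. A minimum of 50 counts changed no count beyond 1.5 times. No paired analysis was possible because each condition is 1 pooled sample. Low counts limit miR-28 and miR-140 in neurons, miR-340-5p in adult MG, and the arm ratios of Mir335 and Mir340.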
